A study of Mus musculus with 10 samples.

Results

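Genes that endothelial cells use to sense fluid flow or to build lymphatic valves were examined in meningeal lymphatic endothelial cells (LECs) as the 8 rows of the deposited count table whose symbols are Piezo1, Klf2, Klf4, Foxc1, Foxc2, Nfatc1, Gja1 and Gja4, out of 55401 rows in all. The genes were chosen by name, with earlier results of these data known. RNA was sequenced from dural cells of C57BL/6 female mice aged 3 months, sorted as CD45- CD31+ PDPN+. There were 5 libraries from naive mice, which received no stressor, and 5 from mice given sub-chronic variable stress (SCVS), in which foot shock, tail suspension and restraint alternated over 6 days. Both groups were wild type, and every library held cells pooled from 3 to 4 animals, so a value is that of a pool and not of a mouse. In bulk RNA of this kind, fewer cells of a type and less RNA per cell cannot be told apart.

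Endothelial cells turn the drag of moving fluid into gene expression. PIEZO1, a mechanically gated cation channel, opens under membrane tension, and the MEKK3-ERK5 kinase cascade acts through MEF2 factors to switch on KLF2 and KLF4, zinc finger transcription factors that mark vessels under steady flow. In collecting lymphatics, disturbed flow at branch points raises FOXC2, a forkhead factor, which works with its paralog FOXC1, with the calcineurin-driven factor NFATc1 and with gap junctions of the connexins encoded by Gja1 and Gja4 to form and keep the leaflets that stop backflow. Meningeal lymphatics are largely of the initial type with few valves, the basal dural part being the exception. The cells sorted here came from meninges taken off the skullcap, and the paper's sorting methods name no basal dura.

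Promoter sequences show how these genes differ before any level is compared. RefSeq promoters from 250 bases before to 50 bases after the gene start, on GRCm38.p6, were used for 6 of the 8 genes, all but Foxc2 and Nfatc1. The first pair printed is Klf2 and Klf4, the flow-induced factors, and the second is Gja4 and Foxc1, whose levels were the most alike in rank across libraries. Capitals mark a match to the MEF2 consensus or, on either strand, to the letters CACCC, the core of the box that KLF factors bind.
Klf2, chr8:72318812-72319111, plus strand: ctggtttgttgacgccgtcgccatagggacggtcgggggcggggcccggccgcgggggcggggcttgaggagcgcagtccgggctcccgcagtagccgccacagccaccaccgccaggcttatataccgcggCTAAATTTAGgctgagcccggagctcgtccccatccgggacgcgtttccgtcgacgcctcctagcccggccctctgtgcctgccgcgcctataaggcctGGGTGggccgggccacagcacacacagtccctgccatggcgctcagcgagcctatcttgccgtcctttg
Klf4, chr4:55532426-55532725, minus strand: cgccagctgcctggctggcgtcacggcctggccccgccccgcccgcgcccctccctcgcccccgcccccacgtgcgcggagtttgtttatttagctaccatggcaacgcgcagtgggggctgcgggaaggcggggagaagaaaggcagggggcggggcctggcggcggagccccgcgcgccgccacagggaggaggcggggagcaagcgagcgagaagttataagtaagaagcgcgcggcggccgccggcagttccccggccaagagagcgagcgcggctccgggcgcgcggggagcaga
Gja4, chr4:127313990-127314289, minus strand: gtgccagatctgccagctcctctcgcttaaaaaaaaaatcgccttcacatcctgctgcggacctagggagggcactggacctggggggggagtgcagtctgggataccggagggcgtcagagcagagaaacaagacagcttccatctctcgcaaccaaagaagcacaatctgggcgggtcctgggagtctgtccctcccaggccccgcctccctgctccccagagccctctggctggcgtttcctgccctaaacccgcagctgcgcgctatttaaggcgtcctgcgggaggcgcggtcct
Foxc1, chr13:31806396-31806695, plus strand: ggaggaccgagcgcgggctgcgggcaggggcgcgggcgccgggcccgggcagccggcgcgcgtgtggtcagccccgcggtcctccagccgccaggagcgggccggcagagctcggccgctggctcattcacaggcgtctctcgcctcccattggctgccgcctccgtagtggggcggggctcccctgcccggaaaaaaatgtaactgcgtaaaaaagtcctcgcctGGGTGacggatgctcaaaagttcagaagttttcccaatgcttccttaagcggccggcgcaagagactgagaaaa
The Klf2 window held a MEF2 match that began 118 bases before the start, and it was the only one of the 6 windows that did, while 3.19% of all 32851 mouse promoters of this length held one. CACCC lay 19 bases before the start of Klf2, 24 before that of Foxc1 and 96 before that of Piezo1, in 3 of the 6 windows, but these 5 letters occurred in 57.5% of all promoters. Klf4 and Gja4 had neither. The GC content was 74.3% for Klf4 and 69.3% for Klf2, against a median of 52.7% over all promoters. Both strands were searched for these motifs, and also for TGACTCA, the AP-1 site, for the forkhead core, spelled GTAAACA, and for the TATA box as TATAAA, and no matches in the 6 windows overlap each other. The AP-1 letters occurred in the Gja1 window and in 5.2% of all promoters, the TATA box in the Piezo1 window and in 13.6%, and the forkhead core in none of the 6 and in 3.65%. A match is a description of letters only.

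Naive 1 and naive 5 stood apart from the other libraries before any member was compared. Naive 5 had a pan-endothelial marker score (mean log2(CPM + 1) over 7 genes, where CPM is the count scaled to 1000000 per library) of 4.93, against 8.60 to 9.75 in the other 9 libraries, and Cdh5, the endothelial cadherin, was at 3.00 CPM there against 135 to 318 CPM elsewhere. Its neural and glial score was the highest, at 7.89. Naive 1 had the lowest lymphatic score, 1.91 against 3.19 to 7.35, with 0 counts of both Prox1 and Pdpn, the master regulator of lymphatic identity and the sorted surface protein. SCVS 5 also had only 2 counts of Prox1, and its erythroid score was 8.39 against 0.467 to 1.94 elsewhere. Blood endothelial markers such as Plvap and Flt1 were abundant in 9 of the 10 libraries, with scores of 7.75 to 9.26 and 2.41 in naive 5, so lymphatic markers were measured beside abundant blood endothelial ones. None of 11 marker scores differed between the groups (smallest adjusted p = 0.757, two-sided exact permutation test, 5 against 5, Benjamini-Hochberg over the 11 lists). The lymphatic score was 4.79 ± 2.18 (SD, n = 5) in naive and 6.13 ± 1.18 in SCVS libraries. Total counts lay between 9984743 and 14094155 per library, where 3 counts, the floor for calling a gene detected, equal 0.213 to 0.3005 CPM. The part of these markers in the results below was not tested. For fold changes of the 8 genes and medians of gene lists, values without naive 1, naive 5 or both are given under 1 rule. They appear where they turn a sign or move a value by over 1.5 times. Single genes of the wider pathway are given with all libraries, some with their value in naive 5. Whether their differences hold without naive 1 or naive 5 is not given. For levels relative to the pan-endothelial markers, values of the naive libraries themselves are given instead.

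**Figure D1:**
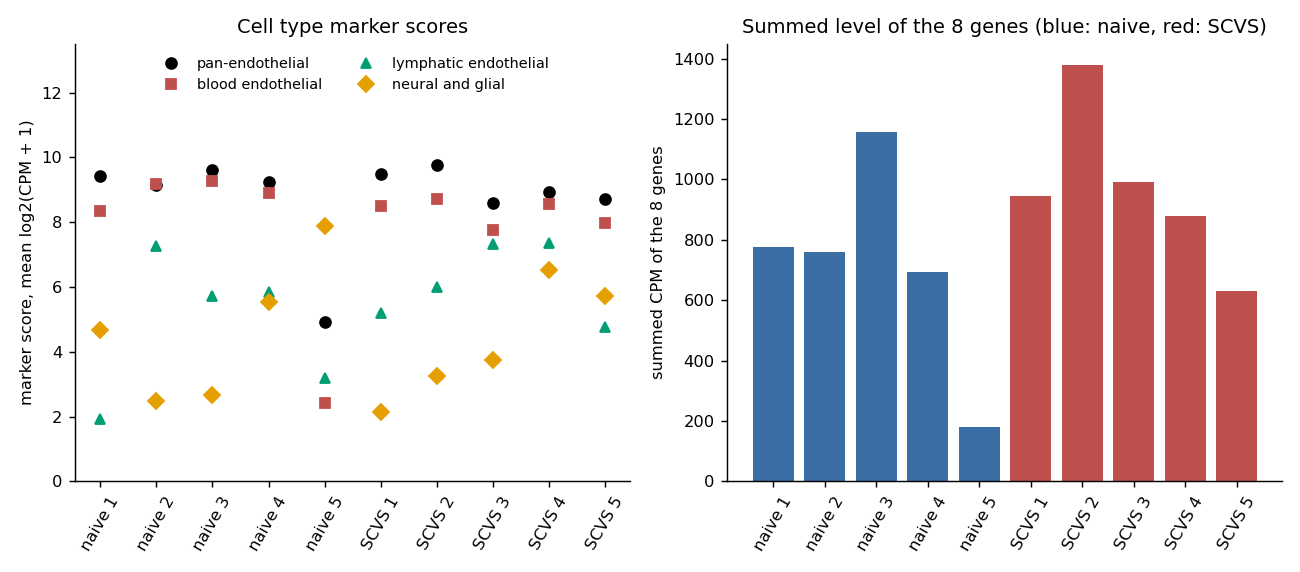
Left, marker scores (mean log2(CPM + 1) of each list, no unit) of 4 cell type lists in each of the 10 libraries. Right, summed CPM of the 8 flow and valve genes, bars from 0. In naive 5 the pan-endothelial score was 4.93 and the summed level 179 CPM, the lowest of the 10 libraries on both measures.

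None of the 8 genes separated the groups. By edgeR's quasi-likelihood test no gene of the 14815 tested passed an adjusted p of 0.1 (0.0% called, with 460 genes at an unadjusted p under 0.05), and the same was true of the 7 members that were tested. DESeq2 called 114 genes (0.814% of those with an adjusted p) and limma with voom 3 genes, again with 0 members. The CPM of the groups overlapped for each of the 8 genes, and 0.628% of tested genes showed no overlap. The summed level of the 8 genes was 777, 759, 1156, 693 and 179 CPM in naive 1 to 5 and 946, 1379.7, 991, 879 and 629 CPM in SCVS 1 to 5, with naive 5 below all others.

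**Figure D2:**
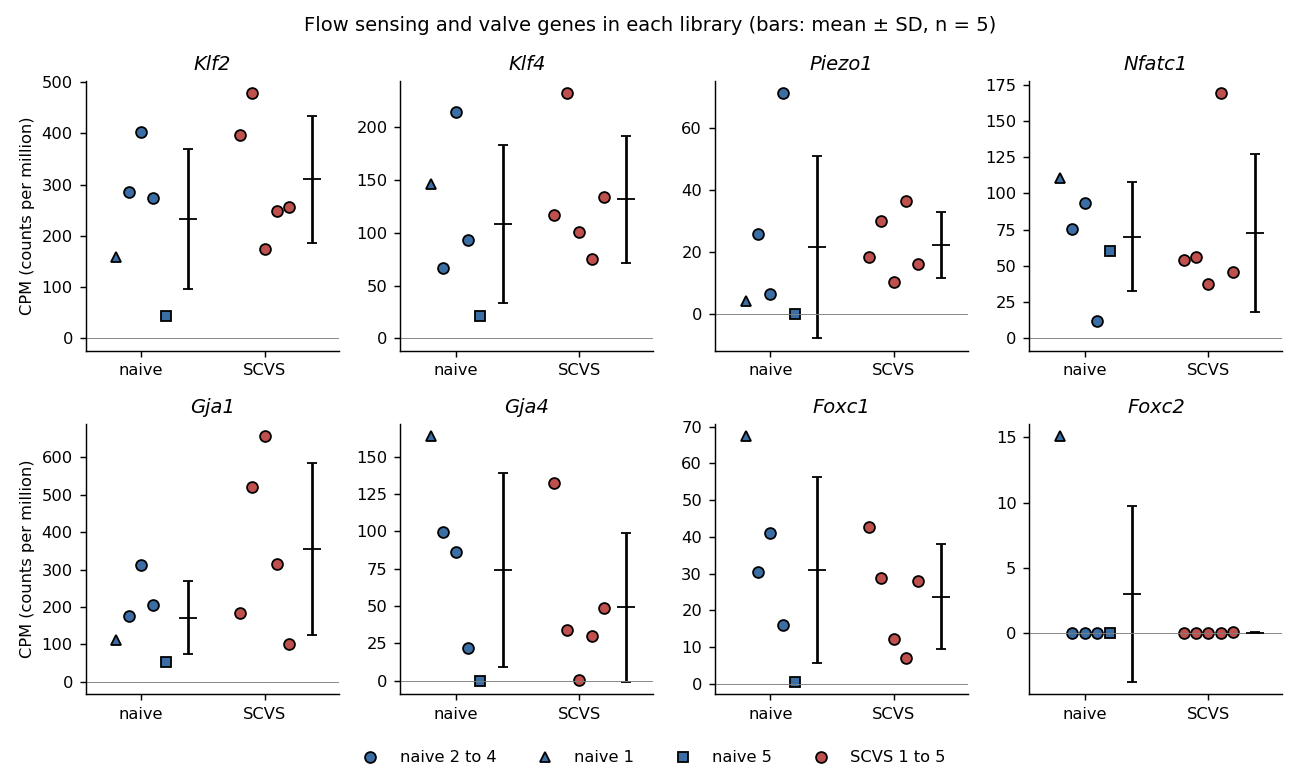
CPM of each gene in each library (points, linear axes that differ between panels), with mean ± SD of 5 libraries per group beside them. Naive 1 (triangle) and naive 5 (square) are drawn apart. The groups overlap in all 8 panels, and naive 5 is lowest for 6 genes.

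Piezo1, the force-gated channel on chromosome 8 (122481698 to 122551329, minus strand, GRCm38.p6, as all gene positions here), was more scattered among the naive than among the SCVS libraries. Its CPM was 4.03, 25.8, 6.51, 71.3 and 0 in naive 1 to 5 and 18.3, 29.9, 10.2, 36.3 and 15.9 in SCVS 1 to 5. Naive 4 held both the highest value of all and 968 of the counts, and naive 5 held none, while the SCVS libraries lay within the naive range. The means were 21.5 ± 29.5 and 22.1 ± 10.7 CPM (SD, n = 5 each; p = 0.976, two-sided exact permutation test), and the log2 fold change was 0.02 (SE 1.36, 95% interval -2.96 to 3.00). Its sign and size depended on the fit. The log2 fold change was -0.24 without naive 1, -0.29 without naive 5 and -0.64 without both, but 1.28 with a block for the replicate number and 1.02 with limma and voom, and it passed the test in none of these. Ctu2 and Gm26497 overlap the gene in RefSeq, and in the GENCODE M1 annotation Ctu2, Gm20388 and a U6 gene do. The use of strand in counting is not given in the sources used here, so a part of these reads may be theirs. Of the summed level per kilobase of Piezo1 and its relative Piezo2, the channel of touch neurons, Piezo1 took 0 to 53.5% and Piezo2 the larger mean, 4.98 against 2.20 CPM per kb.

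Klf2 was among the steadiest of the 8 genes and had the highest mean CPM over all libraries, 272 against 263 for Gja1. In the SCVS libraries alone the mean of Gja1 was higher, 355 against 311 CPM. Klf2 lies on chromosome 8 (72319062 to 72321654, plus strand). Its CPM was 159, 285, 403.5, 274 and 44.0 in naive 1 to 5 and 397, 478, 174, 248 and 256 in SCVS 1 to 5. Naive 5 was the single library below 150 CPM, and without it the highest and lowest values differed 3.00-fold, against 10.9-fold with it. Its mean was 233 ± 137 CPM in naive and 311 ± 124 CPM in SCVS libraries (SD, n = 5 each; p = 0.421, two-sided exact permutation test; log2 fold change 0.35, SE 0.49, 95% interval -0.73 to 1.43). Without naive 5 the naive mean was 280.5 ± 99.7 CPM and the log2 fold change 0.09, and without naive 1 and naive 5 they were 321 ± 71.9 CPM and -0.10. So the sign of the Klf2 difference rests on those naive libraries. On the scale of the pan-endothelial markers of the same library, the level of Klf2 was -0.93 ± 0.96 in naive and -0.91 ± 0.17 in SCVS libraries (log2, p = 0.937, exact permutation test). That naive mean includes naive 5 at 0.56, where the markers themselves were low. Naive 1 to 4 lay between -2.11 and -0.94, each below the SCVS mean, so the closeness of the 2 means rests on naive 5.

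Klf4, the partner of KLF2 in the flow response, lies on chromosome 4 (55527137 to 55532475, minus strand). Its CPM was 146, 66.6, 214, 92.8 and 21.5 in naive 1 to 5 and 117, 232, 100.1, 74.9 and 134 in SCVS 1 to 5. The libraries with the most Klf2 in each group, naive 3 and SCVS 2, also had the most Klf4. Means were 108 ± 74.4 and 131 ± 60.1 CPM (SD, n = 5 each; p = 0.595, two-sided exact permutation test; log2 fold change 0.20, SE 0.55, 95% interval -1.0007 to 1.39). The log2 fold change was 0.35 without naive 1, -0.06 without naive 5 and 0.01 without both.

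Within the Kruppel-like factors, 17 genes in the table, Klf2 took the largest mean share of the summed CPM per kb and Klf4 ranked the fifth, after Klf3, Klf6 and Klf9. Klf2 made up 18.2 to 37.2% of the family across the 10 libraries and Klf4 4.95 to 11.004%. Naive 5 had the lowest Klf2 share, 18.2%, but naive 1 was close at 19.2%, whereas the Klf2 CPM of naive 5 was far below that of naive 1. The Klf2 share was 26.3 ± 8.05% in naive and 31.0 ± 6.16% in SCVS libraries (SD, n = 5 each; p = 0.333, exact permutation test), and that of Klf4 7.40 ± 3.13% and 7.96 ± 2.23% (p = 0.659, the same exact test).

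**Figure D3:**
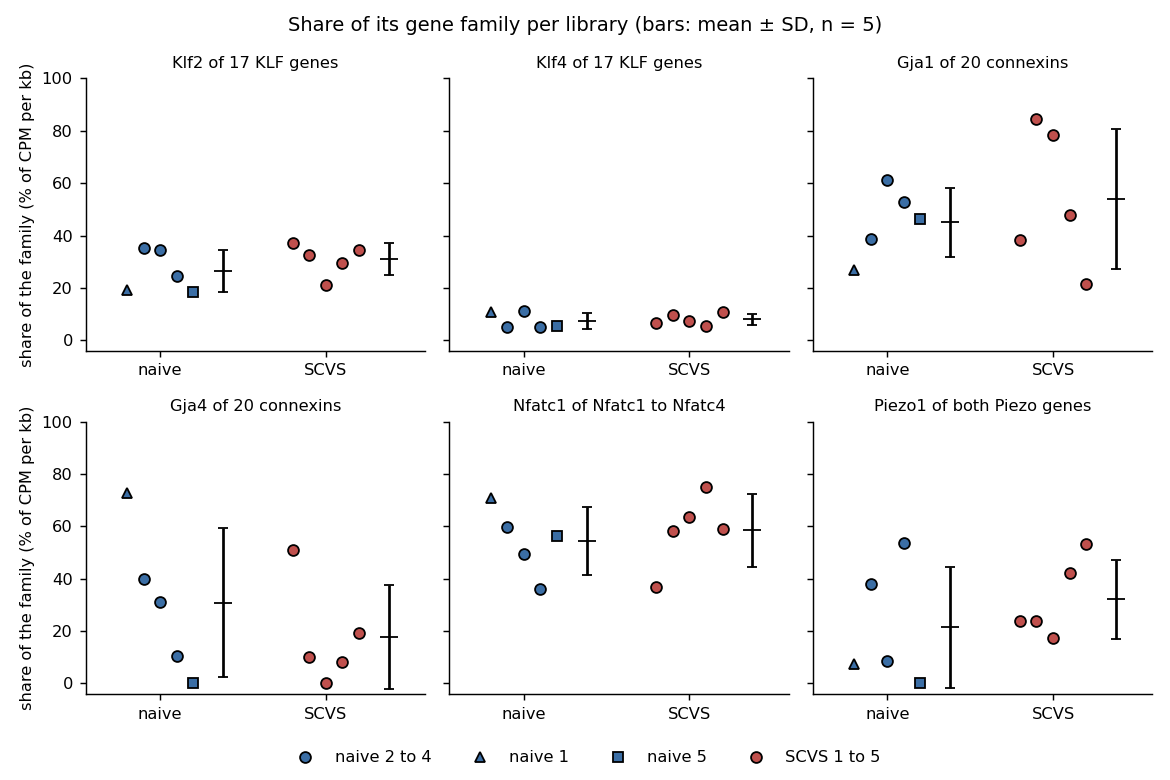
Share of each gene in the summed CPM per kb of its family (percent, 0 to 100), per library, with mean ± SD of 5 libraries per group. Klf2 and Klf4 keep narrow ranges, 18.2 to 37.2% and 4.95 to 11.004%, while Gja1 runs from 21.5 to 84.6% and Gja4 from 0 to 72.8%.

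Among the valve transcription factors, Foxc1 was detected in every library and Foxc2 in a single one. Foxc1, on chromosome 13 (31806646 to 31810635, plus strand), had 67.4, 30.5, 40.9, 15.8 and 0.525 CPM in naive 1 to 5 and 42.8, 28.7, 12.2, 7.10 and 27.8 CPM in SCVS 1 to 5. Naive 5, with 7 counts, stood far below the rest, where the range was 9.48-fold. The means were 31.0 ± 25.4 and 23.7 ± 14.3 CPM (SD, n = 5 each; p = 0.595, two-sided exact permutation test; log2 fold change -0.47, SE 1.02, 95% interval -2.69 to 1.76). The log2 fold change turned to 0.07 without naive 1, and was -0.78 without naive 5 and -0.34 without both.

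Foxc2, on chromosome 8 (121116171 to 121118895, plus strand), had 157 counts in naive 1, equal to 15.1 CPM, 1 count in SCVS 5 and 0 in the other 8 libraries. Those 8 counts of 0 allow at most 0.213 to 0.246 CPM, with counting error alone considered. The gene therefore did not pass the filter of more than 5 counts in at least 3 libraries and was not tested in the main fit. The exact permutation p of its CPM was 1.0. The library that held Foxc2 was the one with no Prox1 or Pdpn, and it also had the highest mural score, 6.83, with Acta2, the smooth muscle actin, at 1525 CPM. In GENCODE M1 the span of Gm20388, on the same strand, overlaps that of Foxc2. How reads shared by both genes were counted is not given in the sources used here. A count of 0 may therefore not mean that the transcript was absent, which was not tested. Per kilobase, Foxc1 took 75.3% of the summed level of the pair in naive 1 and 99.475% or more in every other library.

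Nfatc1, which calcineurin sends to the nucleus in valve-forming cells, lies on chromosome 18 (80606205 to 80713071, minus strand), and the annotated noncoding gene Gm52342 overlaps it. Its CPM was 110.45, 75.2, 93.4, 12.3 and 60.1 in naive 1 to 5 and 54.3, 56.5, 37.8, 169 and 45.6 in SCVS 1 to 5. SCVS 4 was the highest of all and the other 4 SCVS libraries lay between 37.8 and 56.5 CPM. Naive 5, the lowest library for 6 other members, was not low for Nfatc1. The means were 70.3 ± 37.5 and 72.7 ± 54.4 CPM (SD, n = 5 each; p = 0.952, two-sided exact permutation test), with a log2 fold change of 0.0025 (SE 0.63, 95% interval -1.38 to 1.38). Without SCVS 4 the log2 fold change was -0.61, without naive 1 it was 0.24, without naive 5 it was -0.05 and without both it was 0.24. Nfatc1 held the largest mean share per kb of the 4 calcineurin-dependent NFAT genes, 35.9 to 74.9% across libraries, ahead of Nfatc3 and far above Nfatc2 and Nfatc4. SCVS 4, where the macrophage score was also the highest at 7.70, had the largest share.

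Gja1 was the member with the largest difference between the group means relative to its error, and it did not pass. The gene lies on chromosome 10 (56377300 to 56390419, plus strand) and encodes a widely expressed gap junction protein that marks valve-forming lymphatic cells. Its CPM was 111, 176, 311, 205 and 53.2 in naive 1 to 5 and 184, 521, 656, 314 and 100.35 in SCVS 1 to 5. SCVS 2, 3 and 4 were above every naive library, though SCVS 4 by only about 3 CPM, while SCVS 5 was below naive 1. The means were 171 ± 97.9 and 355 ± 231 CPM (SD, n = 5 each; p = 0.159, two-sided exact permutation test), and the log2 fold change was 1.01 (SE 0.56, 95% interval -0.23 to 2.24, unadjusted p = 0.1004, adjusted p = 0.99996 over all 14815 genes, edgeR). Its sign held without naive 1, at 0.90, without naive 5, at 0.78, and without both, at 0.59. On the scale of the pan-endothelial markers the groups were closer with all libraries, at -1.27 ± 1.28 and -0.92 ± 1.15 (log2, p = 0.619, exact permutation test). That naive mean includes naive 5 at 0.83, where the markers themselves were low, while naive 1 to 4 were at -2.62, -1.69, -1.31 and -1.56.

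Gja4, which encodes a gap junction protein of arteries and of mature lymphatic valves, was the most variable of the tested members after Piezo1. It lies on chromosome 4 (127311420 to 127314039, minus strand). Its CPM was 163, 99.3, 86.2, 21.9 and 0 in naive 1 to 5 and 133, 34.2, 0.730, 29.7 and 48.6 in SCVS 1 to 5. Naive 1 and SCVS 1 were the highest of their groups, and naive 5 with 0 counts and SCVS 3 with 9 counts were the lowest. The means were 74.1 ± 65.1 and 49.2 ± 49.8 CPM (SD, n = 5 each; p = 0.508, two-sided exact permutation test; log2 fold change -0.67, SE 1.36, 95% interval -3.65 to 2.32). The log2 fold change was -0.11 without naive 1, -0.99 without naive 5 and -0.53 without both, as well as -1.45 without SCVS 1 and -0.21 with limma and voom.

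Gja1 and Gja4 together took over 50% of the connexin level per kb in 8 of the 10 libraries, the exceptions being SCVS 5 at 40.6% and naive 5 at 46.3%. Of 20 connexin genes, Gja1 ranked first and Gja4 second by mean CPM per kb, followed by Gjb6 and Gjb2, and 7 others had no count in any library. The library with the most Gja1 had almost no Gja4. In SCVS 3 Gja1 took 78.3% of the connexin level and Gja4 0.160%, whereas in naive 1 Gja4 took 72.8% and Gja1 26.8%. The Gja1 share was 45.1 ± 13.2% in naive and 54.1 ± 26.8% in SCVS libraries (SD, n = 5 each; p = 0.508, exact permutation test), and the Gja4 share 30.9 ± 28.3% and 17.8 ± 19.8% (p = 0.397, the same exact test).

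**Figure D4:**
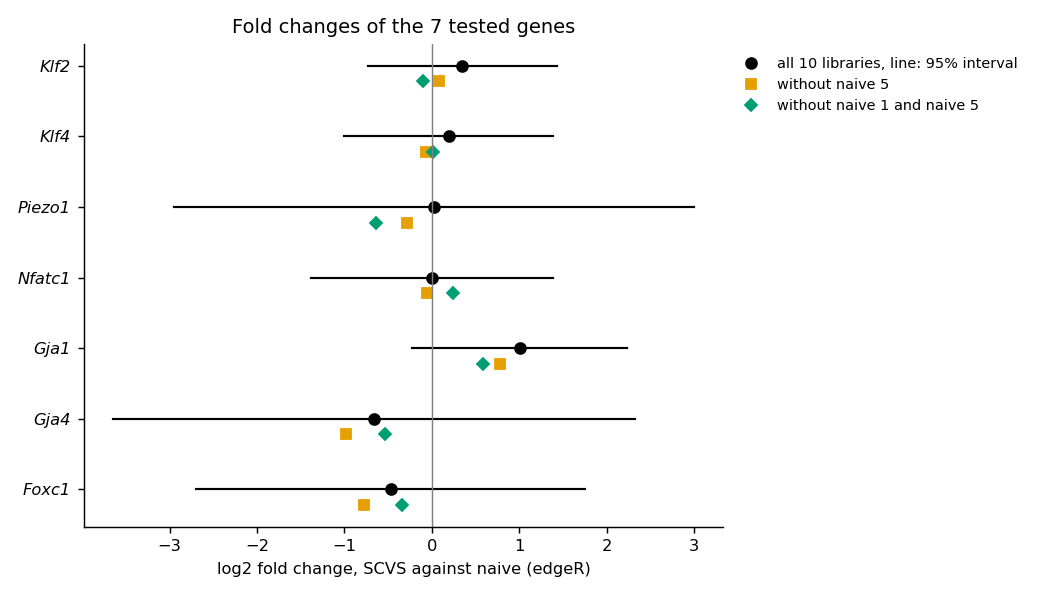
Log2 fold change of SCVS against naive libraries (horizontal axis) for the 7 tested genes, with all 10 libraries (circle, line for the 95% interval), without naive 5 (square) and without naive 1 and naive 5 (diamond). Every interval includes 0, and Gja1, at 1.01 with all libraries, is the furthest above it.

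The levels of the 8 genes spanned a wide scale. Per kilobase of exon in GENCODE M1, mean CPM over the 10 libraries was 147 ± 70.1 for Klf2, 84.8 ± 62.3 for Gja1, 39.2 ± 21.2 for Klf4, 36.6 ± 33.4 for Gja4, 9.62 ± 5.93 for Nfatc1, 6.86 ± 4.96 for Foxc1, 2.20 ± 2.11 for Piezo1 and 0.557 ± 1.75 for Foxc2 (SD, n = 10). Klf2 exceeded Gja1 in 9 libraries and Gja1 exceeded Klf4 in 8. No neighbouring pair in this order passed 0.05 after adjustment over the 7 pairs in an exact two-sided sign-flip permutation test over the 10 libraries, the smallest adjusted p being 0.0615 (Klf2 and Gja1, Gja1 and Klf4, Gja4 and Nfatc1, and Foxc1 and Piezo1) and the largest 0.809 (Klf4 and Gja4). By total CPM, Klf2 and Gja1 stood at the 96.8 and 96.6 percentiles of the tested genes and Piezo1 at 51.0.

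Detection and spread set the members apart from each other. Klf2, Klf4, Gja1, Foxc1 and Nfatc1 were above 3 counts in all 10 libraries, as 38.1% of tested genes were, and Gja4 and Piezo1 in 9. The SD divided by the mean of CPM over the 10 libraries was 0.476 for Klf2, 0.542 for Klf4, 0.617 for Nfatc1, 0.723 for Foxc1, 0.734 for Gja1, 0.912 for Gja4 and 0.960 for Piezo1. The median of all tested genes was 0.928 and that of the tested genes above the floor in all 10 libraries 0.53, so the KLF pair varied about as much as a typical gene detected throughout.

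How the members varied together was described over the 28 pairs, each point being a library with its own depth and cell mixture. Gja4 and Foxc1 were the most alike in rank (Spearman's rho 0.939, adjusted p = 0.0056, Pearson's r 0.855, adjusted p = 0.0694, permutation tests with 100000 resamples, n = 10 libraries, log2(CPM + 1)). Without the 2 libraries farthest from the median of Gja4, naive 5 and SCVS 3, r was 0.823, and relative to the pan-endothelial markers it was 0.551. It was 0.993 within naive libraries, naive 5 included, and 0.587 within SCVS libraries. Without naive 5 alone, r of Gja4 and Foxc1 was 0.716. Klf2 and Klf4 gave r = 0.822 and rho = 0.527 (adjusted p = 0.111 and 0.581, permutation tests), which rested on naive 5 and SCVS 2, since r was 0.20 without them. Gja1 and Gja4 showed r = 0.0085 and rho = -0.22 with all libraries (adjusted p = 0.981 and 0.788, permutation tests) and r = -0.70 without naive 5. Without naive 5 and SCVS 3 their r was -0.45. It was 0.70 within naive libraries, naive 5 included, and -0.69 within SCVS libraries. Of the 28 pairs, 22 had r above 0, or 17 without naive 5, and with all libraries 0 passed an adjusted p of 0.05 by r and 1 by rho.

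**Figure D5:**
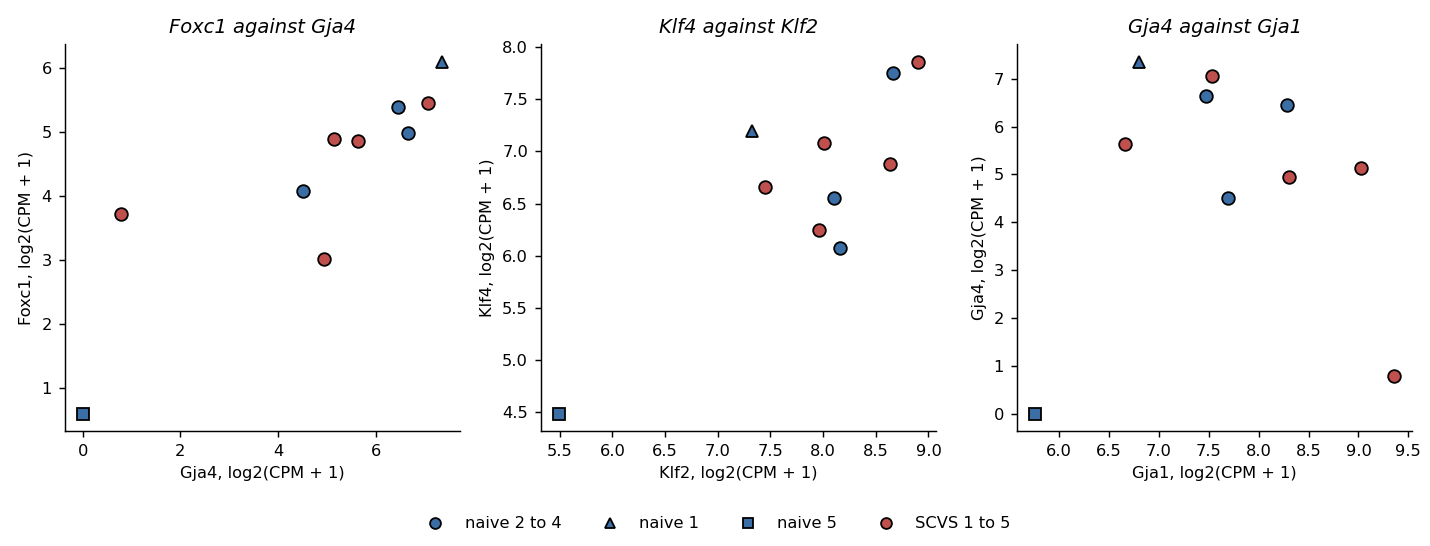
Log2(CPM + 1) of 3 pairs of genes, each point a library, naive in blue and SCVS in red. Foxc1 follows Gja4 over the 10 libraries (rho 0.939), and naive 5 (square) sits apart at the lower left of each panel. The remaining 9 libraries slope downwards for Gja4 against Gja1 (r = -0.70, or -0.45 without SCVS 3 as well).

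The tested genes closest in pattern were found by the root-mean-square difference of centred log2(CPM + 1) over the 10 libraries. For Klf2 they were Clic5 (0.27) and Itga6 (0.30), for Klf4 Jam2 (0.36) and Plcg1 (0.36), for Gja1 Gm26674 (0.44) and Adam10 (0.48), and for Gja4 Mcub (0.69) and Trmt10c (0.69). Foxc1 was closest to Clec1a (0.38) and to Thbd (0.58), which encodes thrombomodulin, Nfatc1 to Man2b1 (0.30) and Pfkp (0.48), and for Piezo1 Aqp1 (0.65) is given. Smaller values mean closer patterns, and the measure also grows with the spread of the gene itself, so values are not compared between members.

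The wider pathway held no called gene. Of 108 genes in 8 lists around them, 86 passed the filter, and 0 were called by edgeR, DESeq2 or limma with voom, while 0 showed separate groups (0.628% of all tested genes did). The median log2 fold change of all tested genes was -0.03. Among 15 flow sensors and junctional receptors, all tested, the median was 0.02, with 8 above 0 and 7 below, and it turned to -0.02 without naive 1, -0.25 without naive 5 and -0.19 without both. Kdr, the VEGF receptor, was at 806 ± 480 and 1142 ± 473 CPM in naive and SCVS libraries. Pecam1, the sorted CD31, was at 798 ± 440 and 764 ± 208 CPM. In naive 5 Kdr and Pecam1 were at 141 and 21.5 CPM, against at least 621 and 932 CPM in the other naive libraries. Flt4, the lymphatic VEGF receptor, was at 79.5 ± 61.2 and 145 ± 87.0 CPM (log2 fold change 0.82, SE 0.62), and Trpv4, a calcium channel, at 20.1 ± 21.6 and 5.54 ± 8.96 CPM (-1.99, SE 2.18).

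Between the sensors and the KLF genes stands the MEKK3-ERK5 cascade, of which all 10 listed genes were tested, 6 above 0 and 4 below, with a median log2 fold change of 0.27 that was 0.12 without naive 1, 0.08 without naive 5 and -0.17 without both. Mef2c, which encodes a factor for the MEF2 consensus printed for Klf2, was abundant at 555 ± 258 and 714 ± 305 CPM. Mef2a was at 105 ± 59.5 and 176 ± 42.2 CPM (log2 fold change 0.70, SE 0.46). In naive 5 Mef2c and Mef2a were at 176 and 27.8 CPM, against at least 419 and 72.6 CPM in the other naive libraries. Mapk7, the gene of ERK5 itself, had 27.9 ± 18.7 and 10.6 ± 11.5 CPM (-1.43, SE 1.35), and Heg1, a receptor that restrains the cascade, 185 ± 141 and 155 ± 112 CPM.

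Downstream, 6 of the 8 genes set by KLF2 and KLF4 or by shear were tested, 1 above 0 and 5 below, with a median of -0.47, which was -0.27 without naive 1, -0.77 without naive 5 and -0.68 without both. Vcam1, the adhesion molecule that KLF2 represses, was at 190 ± 122 CPM in naive and 53.3 ± 23.3 CPM in SCVS libraries, but at 0.15 CPM in naive 5 (log2 fold change -1.86, SE 1.04, unadjusted p = 0.101, adjusted p = 0.99996, edgeR). Thbd was at 282 ± 166 and 200.3 ± 105 CPM, Tek, the angiopoietin receptor, at 396 ± 344 and 393 ± 163 CPM, and Edn1, endothelin, at 35.9 ± 25.4 and 89.1 ± 75.5 CPM. None of these differences passed the test.

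Of 24 lymphatic valve genes, 23 were tested, 13 above 0 and 10 below, with a median of 0.09, which was 0.05 without naive 1 and turned to -0.04 without naive 5 and -0.18 without both. Nrp1, a semaphorin receptor, was at 951 ± 514 and 852 ± 432 CPM and Ramp2, the adrenomedullin co-receptor, at 522 ± 340 and 449 ± 133 CPM. Efnb2, an ephrin needed for valve elongation, was at 51.9 ± 20.5 and 82.7 ± 52.4 CPM, and Plxna1, the semaphorin co-receptor, at 26.5 ± 26.2 and 2.86 ± 2.89 CPM (log2 fold change -3.22, SE 1.83), with naive 5 at 46.6 CPM. Of 12 calcineurin and NFAT genes, 11 were tested, 2 above 0 and 9 below, with a median of -0.29, which was -0.55 without naive 1 and -0.15 without naive 5. There Ppp3cb, a catalytic subunit of calcineurin, was at 73.9 ± 21.6 and 36.9 ± 39.3 CPM, its regulatory subunit gene Ppp3r1 at 93.3 ± 46.7 and 139.9 ± 36.3 CPM, and Nfat5, the osmotic stress factor, at 171 ± 52.9 and 129 ± 103 CPM.

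No relative of the members was called. Of 15 other Kruppel-like factors 12 were tested (7 above 0, 5 below, median 0.16, or 0.07 without naive 5 and 0.09 without both). Klf3 was at 259 ± 129 and 248 ± 81.3 CPM and Klf6 at 264 ± 202 and 306 ± 90.9 CPM. In naive 5 Klf6 was at 18.2 CPM, against at least 92.5 CPM in the other naive libraries. Klf13 was at 100.1 ± 59.3 and 159 ± 88.3 CPM and Klf16 at 0.387 ± 0.708 and 6.29 ± 5.12 CPM. Of 18 other connexins only 4 were tested (3 above 0, 1 below, median 0.93, or 0.61 without naive 1), and Gjb6 was at 14.9 ± 12.7 and 71.1 ± 73.2 CPM and Gjc1 at 31.2 ± 28.2 and 22.9 ± 8.51 CPM. Of 6 other forkhead genes 5 were tested, all 5 above 0, with a median of 0.18 that was 0.66 without naive 1, 0.10 without naive 5 and 0.33 without both, among them Foxo1 at 104 ± 56.8 and 180 ± 85.6 CPM, Foxf2 at 32.6 ± 31.6 and 36.2 ± 24.3 CPM and Foxp2 at 8.96 ± 11.1 and 37.8 ± 23.8 CPM (log2 fold change 2.04, SE 1.26).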

How the data were processed

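The authors sorted LECs from dura digested with collagenase VIII, DNase I and actinomycin D, amplified their RNA (whole-transcriptome kit), sequenced paired ends and deposited raw counts per gene with no normalization or filter. The submitters' processing notes name cutadapt 1.9.1, HISAT2 2.0.1, HTSeq 0.6.1 and GRCm38, while the study's methods name mm9. Of the deposited identifiers 41.2% were not in the mm9 annotation GENCODE M1, so gene positions are those of RefSeq on GRCm38.p6, and M1 gave only exon lengths. Amplification of small inputs can widen the spread between libraries, and reads without molecular identifiers are not independent molecules, so floors cover counting error only.

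Counts were divided by the library total (9984743 to 14094155) to give CPM. The 14815 genes that exceeded 5 counts in 3 or more of the 10 libraries were tested with edgeR 4.0.16 in R 4.3.3 (TMM, quasi-likelihood, Benjamini-Hochberg, threshold 0.1), with DESeq2 1.42.0, limma 3.58.1, other scalings, no filter, a block for the replicate number and each library left out as alternatives. The smallest p of the exact permutation test, 5 against 5, is 0.00794. Named pathway genes are those of a list with the 2 smallest p and the 2 highest mean CPM, without repeats, and a few genes that these rules name are not reported here. Python 3.11.15 and SciPy 1.17.1 were used, and the fits were tested on simulated data. Omission of naive 1 with naive 5, and levels relative to pan-endothelial markers, were added after seeing the data. The members and gene lists were chosen with earlier results of these data known. The labels tie no library to a cohort.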

Additional observations from a re-analysis of the deposited data

Results flagged for a closer look

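Of 38 groups of 5 libraries examined for a sample far from the others, 7 held one. Chance would give 1.9 for normally distributed values in independent groups. Foxc2 was mostly at 0 and the groups share libraries, so no excess over chance is read from the 7. Foxc2 in naive libraries was flagged because naive 1, at 15.07 CPM, stood alone above 4 libraries at 0, and Foxc2 in SCVS libraries because SCVS 5, with 1 count, was at 0.1002 CPM. Nfatc1 in SCVS libraries was flagged for SCVS 4, at 169.1 CPM. The blood endothelial score of 2.415 and the pan-endothelial score of 4.93 were both those of naive 5, the lowest of the naive libraries. The lymphocyte score of 1.399 in SCVS 2 and the erythroid score of 8.391 in SCVS 5 stood above the other SCVS libraries. Naive 5 was also the library lowest for Klf2, Klf4, Gja1, Gja4, Foxc1 and Piezo1, and the part of its cell mixture in those values was not tested.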

How the results depend on the processing

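No member was called under any of the 18 alternatives to the edgeR fit, and Gja1 and Gja4 kept their sign throughout. The count of called genes moved from 0 to 114 with DESeq2, 123 with DESeq2 without Cook's and independent filters, and 3 with limma and voom. The cause was not tested. With each library left out in turn, 0 genes were called, and the log2 fold changes ranged from 0.09 to 0.65 for Klf2, -0.064 to 0.61 for Klf4, 0.62 to 1.35 for Gja1, -1.45 to -0.11 for Gja4, -0.78 to 0.070 for Foxc1, -0.61 to 0.24 for Nfatc1 and -0.29 to 1.25 for Piezo1. The CPM differences ranged from 30.2 to 120.1, -1.80 to 49.7, 108 to 247, -45.9 to -2.67, -14.9 to 1.78, -21.8 to 12.4 and -4.77 to 13.1 in the same order, and from -3.75 to 0.0200 for Foxc2. Without naive 1 and naive 5, signs turned for Klf2 (-0.10, or -10.1 CPM), Piezo1 (-0.64, or -12.4 CPM) and Foxc2 (0.0200 CPM). With DESeq2's size factors Nfatc1 was at -0.10 and Piezo1 at -0.0072, and with no filter Nfatc1 was at -0.0036. The Nfatc1 CPM difference was -0.055 with effective library sizes. On the log2 scale Foxc1 turned in sign (0.16), and relative to pan-endothelial markers Klf4 (-0.093) and Nfatc1 (-0.51) did. Relative to these markers, naive 5 was at -0.44 for Klf4, with naive 1 to 4 between -3.08 and -1.85. For Nfatc1 it was at 1.00, with naive 1 to 4 between -5.52 and -2.63. The replicate block gave 0 called genes and turned Nfatc1 to -0.20, moved Piezo1 to 1.28 (1.02 with limma and voom), with Gja1 at 0.93 (unadjusted p = 0.0157, adjusted p = 1.0, edgeR). Same-numbered libraries deviated together with r over 0.1 for 1 of 5 pairs, and 4 of 5 naive libraries correlated best with their own number, a hint from the data, not the design. Foxc2 was not tested because of its low counts. Fold changes of Gja4, Foxc1 and Piezo1 carry intervals too wide to exclude changes of several fold. The interval of Gja1, -0.23 to 2.24 (log2), does not exclude a rise of several fold either. Those of Klf2 (-0.73 to 1.43), Klf4 (-1.0007 to 1.39) and Nfatc1 (-1.38 to 1.38) are narrower than for Gja4, Foxc1 and Piezo1. They still do not exclude sizeable changes.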
